A study of Homo sapiens with 6 samples.

Results

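Genes of ribosome biogenesis and of the nucleolus were followed in cultured SU-DHL-8 cells, a line established from a human lymphoma of the diffuse large B-cell kind. One group received erianin at 100 nM for 24 h and the other DMSO as solvent control. Erianin, a bibenzyl found in Dendrobium, is known to bind tubulin. All results come from this single line. The cells of both groups were labelled wild type, and each group had 3 libraries of total RNA, numbered as replicate experiments. Nothing says that the 3 came from separate cultures, so p-values reflect only how these libraries vary, and that variation may be technical. The members were 39 genes chosen by symbol, of 65746 symbols in the count table, and all 39 passed the filter on low counts that left 11550 genes to test.

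A ribosome begins in the nucleolus, where RNA polymerase I transcribes the long ribosomal RNA precursor. Small nucleolar ribonucleoproteins (snoRNPs) modify that precursor, a large processome folds and cuts the part that becomes the small subunit, and a separate set of factors assembles the precursor of the large subunit. Several of these genes are known targets of MYC, a growth regulator often active in B-cell lymphoma. The members covered 5 roles: 5 genes of RNA polymerase I transcription, 8 snoRNP genes, 10 of the small subunit, 11 of large subunit assembly, and 5 for abundant nucleolar proteins and chaperones.

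With all 6 libraries, 4 of 39 members rose (10.3%), against 11.8% of all genes tested, and 0 fell, against 12.3%. In bulk RNA, fewer cells of a type and less RNA per cell cannot be told apart. The 4 were NOP2 and NOP16 of large subunit assembly, the polymerase I initiation factor RRN3, and TSR1 of small subunit maturation. Calls are Benjamini-Hochberg adjusted p-values below 0.05 from edgeR's quasi-likelihood test over all genes, and every call below is from that fit with 6 libraries unless another is named. At an unadjusted p below 0.05 in the same edgeR fit, 8 members were higher and 2 lower, the latter FBL and BYSL. DESeq2 called 1 member lower (FBL) and 16.4% of all genes, limma-voom 0 members and 11.8% of genes, and limma-voom with sample quality weights 9 members and 32.1% of genes. The share of members called higher was near that of all genes. Every erianin library lay above every DMSO library in 8 of 39 members (20.5%), against 23.6% of all genes tested. Every erianin library lay below every DMSO library in 5 of 39 (12.8%), against 23.1%. These shares stand beside each such statement below. The median log2 fold change (erianin minus DMSO) was 0.07 over the members and -0.0034 over all genes tested.

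The 4 promoters below belong to the members that rose. Each is the 250 bases before a RefSeq start of the gene (GRCh38.p14), written 5′ to 3′ on the strand of the gene. The gene bounds given further below come from GENCODE and reach further upstream than these starts. The stretches of NOP2, NOP16 and TSR1 lie wholly within those bounds, and that of RRN3 partly. Which start these cells use was not tested. Capitals mark the letters CCGGAAG, the core that ETS family factors bind, on either strand.
NOP2, chr12:6568292-6568541, minus strand: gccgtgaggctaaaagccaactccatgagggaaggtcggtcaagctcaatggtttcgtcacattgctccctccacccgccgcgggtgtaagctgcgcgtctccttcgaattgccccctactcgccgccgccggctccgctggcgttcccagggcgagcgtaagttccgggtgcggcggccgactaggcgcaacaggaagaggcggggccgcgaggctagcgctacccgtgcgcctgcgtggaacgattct
NOP16, chr5:176388599-176388848, minus strand: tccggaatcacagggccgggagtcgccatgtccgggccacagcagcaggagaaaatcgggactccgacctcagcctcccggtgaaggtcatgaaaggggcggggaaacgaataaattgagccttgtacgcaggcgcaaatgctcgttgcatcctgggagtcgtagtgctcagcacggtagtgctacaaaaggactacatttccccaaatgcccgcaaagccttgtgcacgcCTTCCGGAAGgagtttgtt
RRN3, chr16:15094273-15094522, minus strand: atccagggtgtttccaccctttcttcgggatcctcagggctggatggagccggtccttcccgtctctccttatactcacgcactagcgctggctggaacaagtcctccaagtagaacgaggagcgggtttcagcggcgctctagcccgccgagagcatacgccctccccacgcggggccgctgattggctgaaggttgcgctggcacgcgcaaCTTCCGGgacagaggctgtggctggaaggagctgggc
TSR1, chr17:2336458-2336707, minus strand: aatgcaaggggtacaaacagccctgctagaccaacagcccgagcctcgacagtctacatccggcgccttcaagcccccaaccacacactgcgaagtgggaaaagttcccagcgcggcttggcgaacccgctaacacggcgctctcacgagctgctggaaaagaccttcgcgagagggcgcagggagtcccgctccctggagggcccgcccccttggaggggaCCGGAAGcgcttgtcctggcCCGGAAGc

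NOP16 and TSR1 each held 2 matches to CCGGAAG, which in NOP16 lie on opposite strands and overlap, and RRN3 held 1 in the promoter shown. NOP2 held none, and its match to the E-box CACGTG, the letters that MYC and MAX bind, began 36 bases after the start and so lies outside the stretch shown. RefSeq promoters (250 bases before to 50 after the start) were found for 33 members. The E-box CACGTG stood in the promoters of 13 of these 33 (39.4%), against 12.8% of 9113 tested genes and 8.78% of all 27305 genes with a promoter listed. CCGGAAG stood in 11 of 33 (33.3%), against 22.8% of the tested genes and 12.2% of all. Both strands were searched, a gene counted once if any of its promoters matched, and the 2 motifs cannot overlap each other. A match describes letters in this window and says nothing of binding.

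The members' level moved with 1 library. Total counts ran from 30956443 to 35588728, and 3 counts equal 0.0819 to 0.0986 CPM (counts relative to the TMM-scaled library total), for counting error only. DMSO replicate 1 stood apart: its biological coefficient of variation was 0.292 and 0.296 (from 0.2955) against the other DMSO libraries, which differed from each other by 0.0380, and the erianin libraries differed by 0.0336 to 0.0815. The B-cell label was met, with all 8 B-cell markers at 1 CPM or more on average. Summed T-cell markers were at 3.03 to 3.75 CPM with DMSO and 1.39 to 2.2 CPM with erianin (2 of 6 genes at 0). Summed myeloid markers were at 4.30 to 7.27 and 9.42 to 10.6 CPM (0 of 5 at 0), most of it LYZ. CD14 among them was at 0 to 0.265 CPM with DMSO and 1.56 to 1.60 CPM with erianin. Epithelial, fibroblast and erythroid markers summed to at most 0.218 CPM in any library. The part of these low markers in the results was not tested.

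Among the members, DMSO replicate 1 was the lowest of all 6 libraries for 15 and the highest for 14 of 39. It differed from the mean of the other DMSO libraries by over 1.5-fold in 14 members, while DMSO replicates 2 and 3 lay within 1.19-fold of each other in all 39. The deviation followed base composition. Of 12 members whose longest transcript has under 45% GC, 10 were higher in DMSO replicate 1, and of 12 members over 55% GC, 11 were lower. Across the 39 members, Pearson's r between GC content and the deviation was -0.74 and Spearman's rho -0.75. These genes share the same libraries and are not independent, so no p is given. The same direction held over all genes, where the median deviation was 0.36 (log2) in the fifth of tested genes lowest in GC and -0.50 in the fifth highest.

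**Figure D1:**
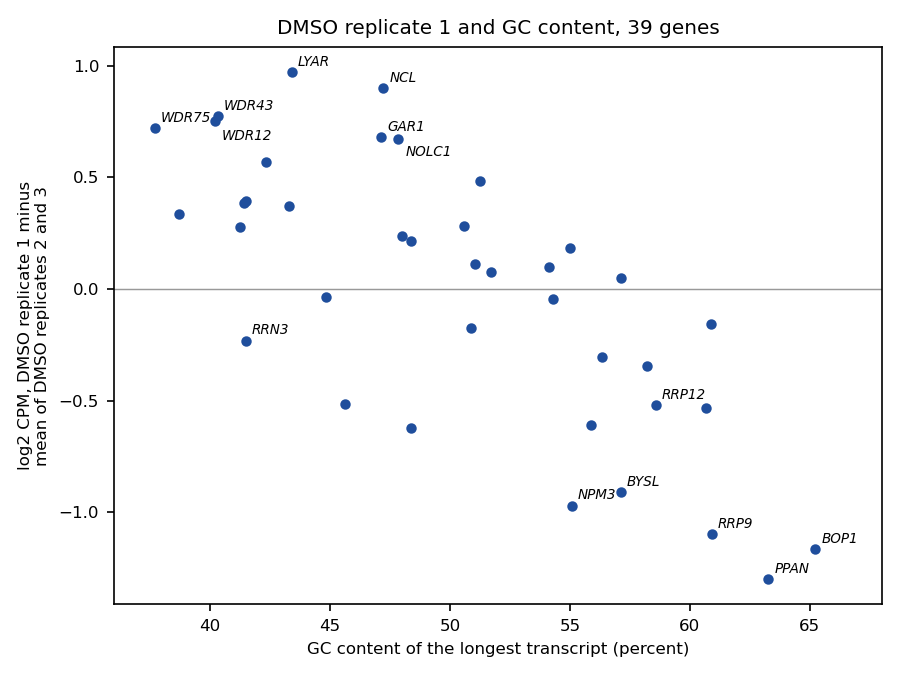
Each point is 1 of the 39 genes, with the GC content of its longest GENCODE 29 transcript in percent on the x axis and the log2 CPM of DMSO replicate 1 minus the mean of DMSO replicates 2 and 3 on the y axis. Points fall from upper left to lower right (Pearson's r -0.74), from LYAR, NCL and the WDR genes above 0 to RRP9, BOP1 and PPAN below.

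Without DMSO replicate 1, 18 of 39 members were called higher (46.2%), against 27.8% of all genes tested, and 5 lower (12.8%), against 27.4%. All 4 members called with 6 libraries were among the 18, and none changed direction between calls. With an offset per library for smooth trends in GC content and exon length and all 6 libraries kept, 5 of 39 were called higher (12.8%), against 14.9%, and 2 lower (5.13%), against 20.8%. WDR75 joined the 4 as higher, and the 2 lower were FBL and BYSL. The median over members was 0.10 without DMSO replicate 1, against 0.03 over all genes, and 0.05 with the offsets, against -0.05. No fit both left out DMSO replicate 1 and used the offsets. The part of GC content in the calls without that library was not tested.

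**Figure D2:**
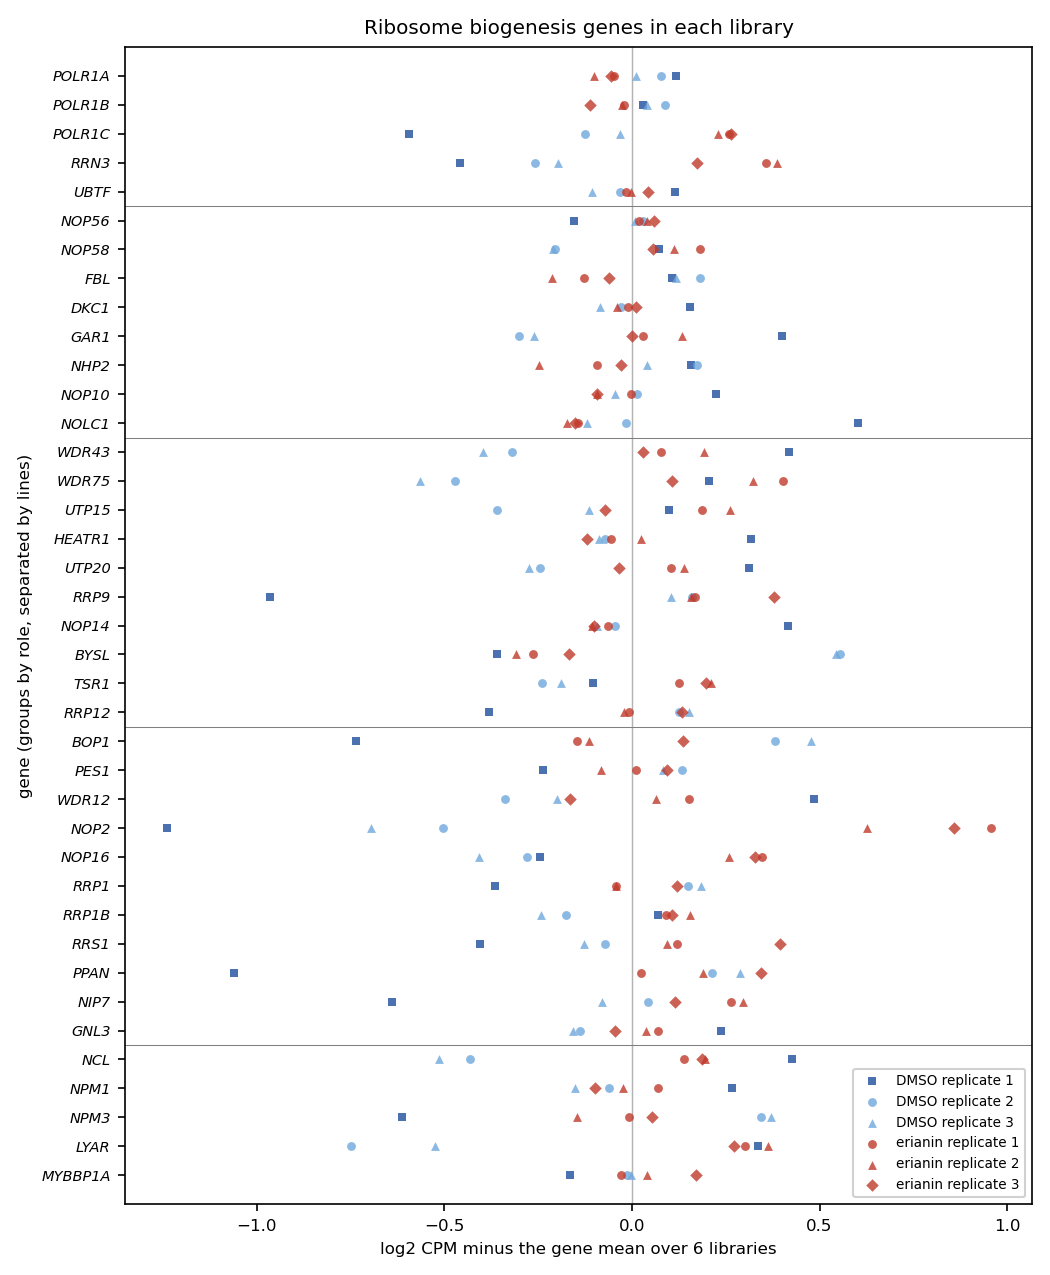
Each row is 1 of the 39 genes, grouped by role, and each point is 1 library: blue for DMSO with replicate 1 as dark squares, red for erianin. The x axis is log2 CPM minus the mean of the gene over all 6 libraries. Dark squares lie at either end of many rows, and the 2 other DMSO libraries lie close together.

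Among genes of RNA polymerase I transcription, edgeR called 1 higher and the other 4 not, where 11.8% of all genes were called higher. RRN3 (ENSG00000085721, chromosome 16, 15060022 to 15094317, minus strand) encodes the factor that joins the polymerase to its promoter complex. Its level was 43.5, 50.1 and 52.2 CPM in DMSO replicates 1, 2 and 3 and 76.7, 78.2 and 67.5 CPM in erianin replicates 1, 2 and 3. All erianin libraries lay above all DMSO libraries, and RRN3 rose 1.53-fold (log2 fold change 0.61 ± 0.12 SE, adjusted p = 0.012). It was not called without erianin replicate 1 or 2 (adjusted p up to 0.068). The count table lists 4 pseudogenes named after RRN3 (RRN3P1 to RRN3P4), all at 0 in every library, so reads shared with them may have been given to RRN3 or dropped.

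POLR1A and POLR1B encode the largest and second-largest catalytic subunits, and POLR1C a subunit shared with RNA polymerase III. POLR1C had 45.2, 62.5 and 66.7 CPM with DMSO and 81.6, 79.97 and 81.8 CPM with erianin. Its groups did not overlap, which held for 23.6% of all genes in this direction, but it missed the threshold in edgeR (0.48 ± 0.15, adjusted p = 0.060). POLR1C was called higher in 5 of the 17 other settings: by DESeq2 (adjusted p = 0.032), with upper-quartile scaling (0.042), with total counts alone (0.026), by limma-voom with sample quality weights, and by edgeR without DMSO replicate 1 (0.34, adjusted p = 0.00017). POLR1A and POLR1B stood at 226 ± 8.53 and 102 ± 2.25 CPM with DMSO and 206 ± 4.12 and 94.9 ± 3.31 CPM with erianin (mean ± SD, n = 3; adjusted p = 0.31 and 0.45 by edgeR). For both, every erianin library lay below every DMSO library, which held for 23.1% of all genes. Limma-voom with sample quality weights called POLR1A lower (-0.12, adjusted p = 0.038) but not POLR1B. UBTF, the architectural factor of ribosomal DNA, had 364, 329 and 313 CPM with DMSO and 333, 336 and 347 CPM with erianin (0.01 ± 0.10, adjusted p = 0.94). Its groups overlapped.

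Of the 8 snoRNP genes, none was called by edgeR with 6 libraries, where FBL alone had an unadjusted p below 0.05. In that fit 11.8% of all genes were called higher and 12.3% lower. Without DMSO replicate 1, edgeR called 2 of the 8 higher and 2 lower, against 27.8% and 27.4% of all genes. DESeq2 called FBL lower. FBL, the methyltransferase of box C/D snoRNPs (chromosome 19, 39834458 to 39846414, minus strand), was the snoRNP gene with the highest level per exon length. It had 692, 729 and 698 CPM with DMSO and 588, 554 and 616 CPM with erianin. Every erianin library lay below every DMSO library, which held for 23.1% of all genes. The log2 fold change was -0.27 ± 0.09 (adjusted p = 0.078), and FBL was called lower without DMSO replicate 1 (-0.27, adjusted p = 0.00053), with the GC and length offsets (-0.38, adjusted p = 0.023) and by DESeq2. The H/ACA protein gene NHP2 had 131, 133 and 121 CPM with DMSO and 110.3, 99.1 and 115 CPM with erianin, also without overlap. NHP2 was called lower without DMSO replicate 1 (-0.22, adjusted p = 0.012) but not by edgeR with all libraries (adjusted p = 0.13), while limma-voom with sample quality weights called it lower with all of them (-0.27, adjusted p = 0.00062). NHP2 shares 414 of its 1510 exonic bases with RMND5B on the opposite strand, and the handling of strand in counting is not given in the sources used here.

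NOP56 and NOP58 encode the paired core scaffold proteins of box C/D snoRNPs. NOP56 had 690, 784 and 773 CPM with DMSO and 779, 789.5 and 801 CPM with erianin (0.08 ± 0.10, adjusted p = 0.61). NOP58 had 166, 137 and 136 CPM with DMSO and 179, 170.2 and 164 CPM with erianin (0.23 ± 0.11, adjusted p = 0.19), and was called higher without DMSO replicate 1 (0.34, adjusted p = 6.1e-05). In both genes 1 DMSO library, replicate 1, lay away from the other DMSO libraries, below them for NOP56 and above them for NOP58. The ratio of NOP56 to NOP58 counts was 4.17, 5.74 and 5.68 with DMSO and 4.36, 4.64 and 4.89 with erianin. This ratio does not depend on scaling between libraries, and its difference had a two-sided exact permutation p of 0.4 (0.6 adjusted over 3 paralog pairs), where 3 against 3 libraries cannot give less than 0.1.

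The remaining snoRNP genes were not called by edgeR with 6 libraries, and of these limma-voom with sample quality weights called GAR1 alone (higher, adjusted p = 6.1e-05). DKC1, the pseudouridine synthase, stood at 286 ± 25.5 and 280.0 ± 5.01 CPM (adjusted p = 0.86), and the small H/ACA protein gene NOP10 at 73.2 ± 7.34 and 66.8 ± 2.47 CPM (adjusted p = 0.42). GAR1, the remaining H/ACA protein, had 90.2 CPM in DMSO replicate 1 against 55.5 and 57.0 CPM in DMSO replicates 2 and 3; erianin libraries had 69.8, 75.1 and 68.4 CPM. NOLC1, which carries snoRNPs between nucleolus and Cajal bodies, had 903 CPM in DMSO replicate 1 against 588 and 547 CPM, and 538, 528 and 535 CPM with erianin. For both genes the erianin values lay below DMSO replicate 1, yet GAR1 was called higher without that library (0.35, adjusted p = 0.00023) and NOLC1 was not called (-0.08, adjusted p = 0.29). For NOLC1 every erianin library lay below every DMSO library, which held for 23.1% of all genes.

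Of the 10 small subunit genes, 1 rose with all 6 libraries, against 11.8% of all genes tested. Without DMSO replicate 1, 5 were called higher and 1 lower, against 27.8% and 27.4% of all genes. TSR1 (ENSG00000167721, chromosome 17, 2322503 to 2337507, minus strand) encodes a GTPase-like factor of late small subunit maturation. It had 73.1, 66.4 and 68.9 CPM with DMSO and 85.6, 90.8 and 89.9 CPM with erianin, with no overlap. TSR1 rose 1.28-fold (0.35 ± 0.10, adjusted p = 0.035). Leaving out any 1 library other than DMSO replicate 1 ended the call, as did the fit without a filter and those with the replicate number as a block (adjusted p up to 0.15 over the settings tried). TSR1 shares 1146 of 5545 exonic bases with SRR on the opposite strand.

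BYSL, which encodes bystin, a factor of late small subunit maturation (ENSG00000112578, chromosome 6, 41921188 to 41933046, plus strand), was the small subunit gene with the highest level per exon length. It had 430, 811 and 804 CPM in DMSO replicates 1, 2 and 3 and 459, 445 and 491 CPM with erianin. DMSO replicate 1 lay below every erianin library, and the other DMSO libraries lay far above them. With all libraries BYSL was not called (-0.55 ± 0.23, adjusted p = 0.13). It was called lower without DMSO replicate 1 (-0.78, adjusted p = 5.8e-11) and with the offsets for GC content and length (-0.62, adjusted p = 0.012). Without DMSO replicate 1, BYSL had the largest fall of the 39 members.

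The early processome genes WDR43, WDR75, UTP15 and HEATR1 encode proteins of the subcomplex that meets the precursor first. WDR75 had 78.8, 49.3 and 46.2 CPM with DMSO and 90.4, 85.5 and 73.6 CPM with erianin. Its log2 fold change was 0.52 ± 0.21 (adjusted p = 0.12), with a call as higher without DMSO replicate 1 (0.81, adjusted p = 8.5e-09) and with the offsets (0.47, adjusted p = 0.027). WDR43 had 147, 88.0 and 83.4 CPM with DMSO and 116, 126 and 112 CPM with erianin (0.15 ± 0.22, adjusted p = 0.65), and was called higher without DMSO replicate 1 (0.47, adjusted p = 2.4e-06). UTP15 stood at 19.98 ± 3.15 and 23.7 ± 2.79 CPM, and UTP20, a scaffold of the processome, at 52.4 ± 12.7 and 56.8 ± 3.58 CPM. Both were called higher without DMSO replicate 1 only, among the fits without library weights (log2 fold changes 0.38 and 0.34). HEATR1 stood at 100.0 ± 16.5 and 92.4 ± 4.67 CPM (adjusted p = 0.58) and was called under no setting tried.

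RRP9, a U3 snoRNP protein, had 43.6 CPM in DMSO replicate 1, 95.1 and 91.5 CPM in DMSO replicates 2 and 3, and 95.7, 94.9 and 111 CPM with erianin. Its log2 fold change of 0.39 ± 0.28 (adjusted p = 0.35) was 0.12 (adjusted p = 0.17) without DMSO replicate 1. RRP12, an export factor, had 109 CPM in DMSO replicate 1 and 139 to 157 CPM in all other libraries (adjusted p = 0.84), and NOP14 had 182 CPM there and 126 to 132 CPM elsewhere (adjusted p = 0.37). In these 3 genes the erianin libraries lay close to DMSO replicates 2 and 3.

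Of the 11 large subunit genes, 2 rose with all 6 libraries, against 11.8% of all genes tested. Without DMSO replicate 1, 7 were called higher and 1 lower, against 27.8% and 27.4% of all genes. NOP16 (ENSG00000048162, chromosome 5, 176383938 to 176388975, minus strand) encodes a nucleolar protein of early large subunit particles. It had 39.6, 38.6 and 35.3 CPM with DMSO and 59.6, 56.1 and 58.9 CPM with erianin. The groups did not overlap, and NOP16 rose 1.54-fold (0.62 ± 0.10, adjusted p = 0.0064). It was called higher under each of the 17 other settings tried (log2 fold change 0.54 to 0.73). NOP16 shares 344 of 2862 exonic bases with ARL10 and 227 with HIGD2A, both on the opposite strand.

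NOP2 (ENSG00000111641, chromosome 12, 6556863 to 6568691, minus strand) encodes a methyltransferase of large subunit ribosomal RNA. Its counts were 27, 48 and 44 with DMSO and 149, 112 and 133 with erianin, or 0.887, 1.48 and 1.29 CPM against 4.07, 3.24 and 3.80 CPM. NOP2 rose 3.02-fold (1.595 ± 0.23, adjusted p = 0.0048) and was called higher under each of the 17 other settings (1.39 to 1.75). It was the lowest of the 39 members per exon length. In GENCODE 29, 2550 of its 4687 exonic bases (54.4%) lie in a longer gene on the same strand, AC006064.6, which was not analysed here. Reads in the shared bases may not have been counted for NOP2, so its values may describe part of its transcripts, and whether that part follows the whole was not tested.

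BOP1, PES1 and WDR12 form the PeBoW complex that large subunit maturation needs. BOP1 (matched to chromosome 8 by symbol, since its identifier differs from that in GENCODE 29) had 165, 358 and 383 CPM with DMSO and 248, 254 and 302 CPM with erianin. PES1 had 248, 320.3 and 309 CPM with DMSO and 294, 276 and 311 CPM with erianin. WDR12 had 114, 64.4 and 70.9 CPM with DMSO and 90.4, 85.1 and 72.6 CPM with erianin. The calls of the 3 partners differed without DMSO replicate 1, where BOP1 was called lower (-0.45, adjusted p = 6.2e-06), WDR12 higher (0.30, adjusted p = 0.0029) and PES1 neither (-0.09, adjusted p = 0.25). With the offsets for GC content and length, edgeR called none of them. The values were -0.29 for BOP1, 0.05 for WDR12 and -0.06 for PES1 (adjusted p = 0.18, 0.77 and 0.53). None was called by edgeR with all libraries (adjusted p = 0.71, 0.99 and 0.97; smallest unadjusted p = 0.57), and the log2 fold change of WDR12 was -0.0063 there. The difference between the partners was not tested.

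RRP1 and RRP1B are paralogs on chromosome 21. RRP1 had 106, 151 and 155 CPM with DMSO and 133, 133 and 148 CPM with erianin (0.0040 ± 0.16, adjusted p = 0.99). RRP1B, a nucleolar partner of protein phosphatase 1, had 185, 156 and 149 CPM with DMSO and 188, 196 and 190.0 CPM with erianin, with every erianin library above every DMSO library (0.23 ± 0.11, adjusted p = 0.18). RRP1B was called higher without DMSO replicate 1 (0.34, adjusted p = 4.4e-05). The count ratio of RRP1 to RRP1B was 0.571, 0.969 and 1.04 with DMSO and 0.705, 0.675 and 0.780 with erianin. DMSO replicate 1 had the lowest ratio and the other DMSO libraries the highest (two-sided exact permutation p = 0.4).

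RRS1, an assembly factor of the large subunit, had 43.4, 54.6 and 52.5 CPM with DMSO and 62.4, 61.3 and 75.5 CPM with erianin. NIP7, another such factor, had 39.6, 63.5 and 58.3 CPM with DMSO and 74.0, 75.6 and 66.7 CPM with erianin. For both, all erianin libraries lay above all DMSO libraries, which held for 23.6% of all genes. Neither passed the threshold in edgeR (adjusted p = 0.070 and 0.13), and both were called higher without DMSO replicate 1 (0.32, adjusted p = 0.0021, and 0.26, adjusted p = 0.0055) and by limma-voom with sample quality weights. With all libraries RRS1 was also called higher by DESeq2 (adjusted p = 0.048), with upper-quartile scaling (0.045) and with total counts alone (0.027). GNL3, which encodes nucleostemin, stood at 180 ± 29.1 and 184 ± 7.41 CPM (adjusted p = 0.89). Without DMSO replicate 1, edgeR called GNL3 higher (0.18, adjusted p = 0.014). PPAN had 3.75, 9.06 and 9.53 CPM with DMSO and 7.95, 8.90 and 9.92 CPM with erianin (adjusted p = 0.60). As for NOP2, 1447 of the 2583 exonic bases of PPAN lie in a readthrough gene, PPAN-P2RY11, listed at 0 or 1 count in each library, so its level may be understated.

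None of the 5 genes for abundant nucleolar proteins was called with 6 libraries by edgeR, with no unadjusted p below 0.05. In that fit 11.8% of all genes were called higher and 12.3% lower. NCL encodes nucleolin, an RNA-binding protein of the nucleolus. It had 1547 CPM in DMSO replicate 1, 852 and 805 CPM in DMSO replicates 2 and 3, and 1267, 1317 and 1308 CPM with erianin. The erianin values lay between those of the DMSO libraries, and the call rests on 1 library: 0.28 ± 0.25 (adjusted p = 0.45) with it and 0.66 ± 0.06 (adjusted p = 1.5e-09) without it. LYAR, a nucleolar zinc finger protein, had 85.6, 40.4 and 47.2 CPM with DMSO and 83.6, 87.2 and 81.9 CPM with erianin (0.55 ± 0.27, adjusted p = 0.18), and 0.96 (adjusted p = 1.8e-10) without DMSO replicate 1. MYBBP1A, a regulator of polymerase I transcription, stood at 217 ± 13.5 and 236 ± 16.9 CPM (adjusted p = 0.44).

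NPM1 encodes nucleophosmin, the most abundant nucleolar histone chaperone, and NPM3 a smaller relative. NPM1 had 2491, 1985 and 1862 CPM with DMSO and 2174, 2036 and 1933 CPM with erianin (-0.05 ± 0.14, adjusted p = 0.84). NPM3 had 55.3, 107 and 109 CPM with DMSO and 84.0, 76.4 and 87.6 CPM with erianin (-0.13 ± 0.25, adjusted p = 0.74). The 2 genes lay on opposite sides in DMSO replicate 1, where NPM1 was the highest and NPM3 the lowest of all libraries. The count ratio of NPM1 to NPM3 was 45.1 there, 18.5 and 17.04 in the other DMSO libraries and 25.9, 26.7 and 22.1 with erianin (two-sided exact permutation p = 1). NPM3 was called lower without DMSO replicate 1 (-0.38, adjusted p = 5.2e-05). GENCODE 29 names 45 pseudogenes after NPM1, with which it can share reads.

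**Figure D3:**
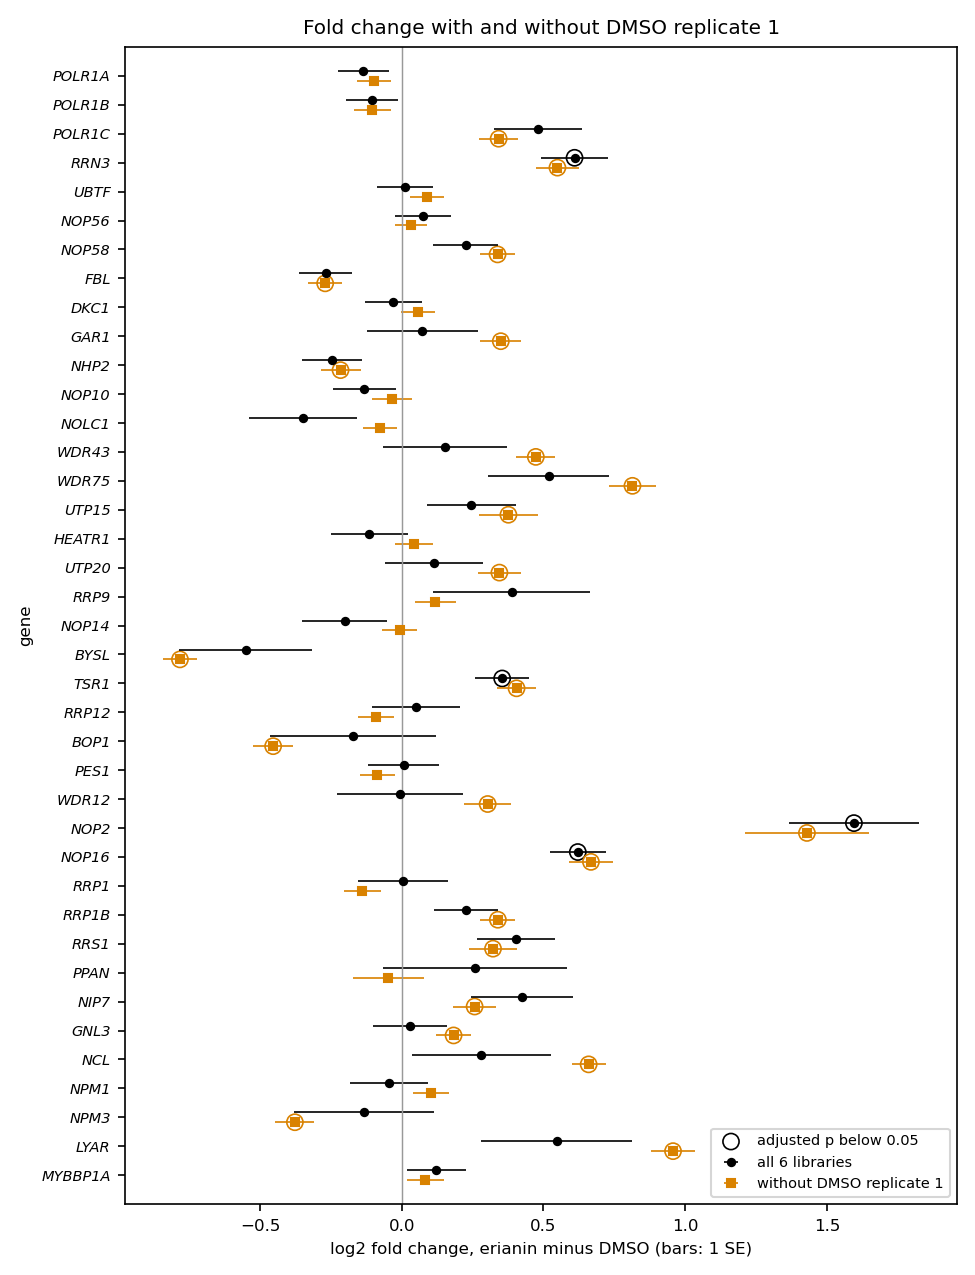
Log2 fold changes (erianin minus DMSO) with bars of 1 SE for the 39 genes, in black with all 6 libraries and in orange without DMSO replicate 1; rings mark adjusted p below 0.05. The 4 black rings are RRN3, TSR1, NOP2 and NOP16, and there are 23 orange rings, 18 to the right of 0 and 5 to the left.

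Levels between genes were compared as CPM per kilobase of exon. With DMSO they ran from 0.260 for NOP2 to 552 for NPM1, and FBL (325) and BYSL (303) came next after NPM1. In the deposited TPM of DMSO replicate 2, NPM1 (1014 TPM), BYSL (710 TPM) and FBL (410 TPM) were also the first 3 members and NOP2 (0.231 TPM) the last. The lengths behind the deposited TPM, set beside those of GENCODE 29 and scaled to the median member, ran from 0.393 for RRS1 to 2.69 for NOP2, so the order of genes nearer to each other depends on the length used. With erianin NPM1 (535), FBL (269.7) and BYSL (207) kept this order per kilobase. In the deposited TPM, NPM1 was first in all 6 libraries, but NCL was second in DMSO replicate 1 (372 TPM) and in erianin replicates 1, 2 and 3 (487, 518 and 504 TPM), ahead of BYSL and FBL.

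**Figure D4:**
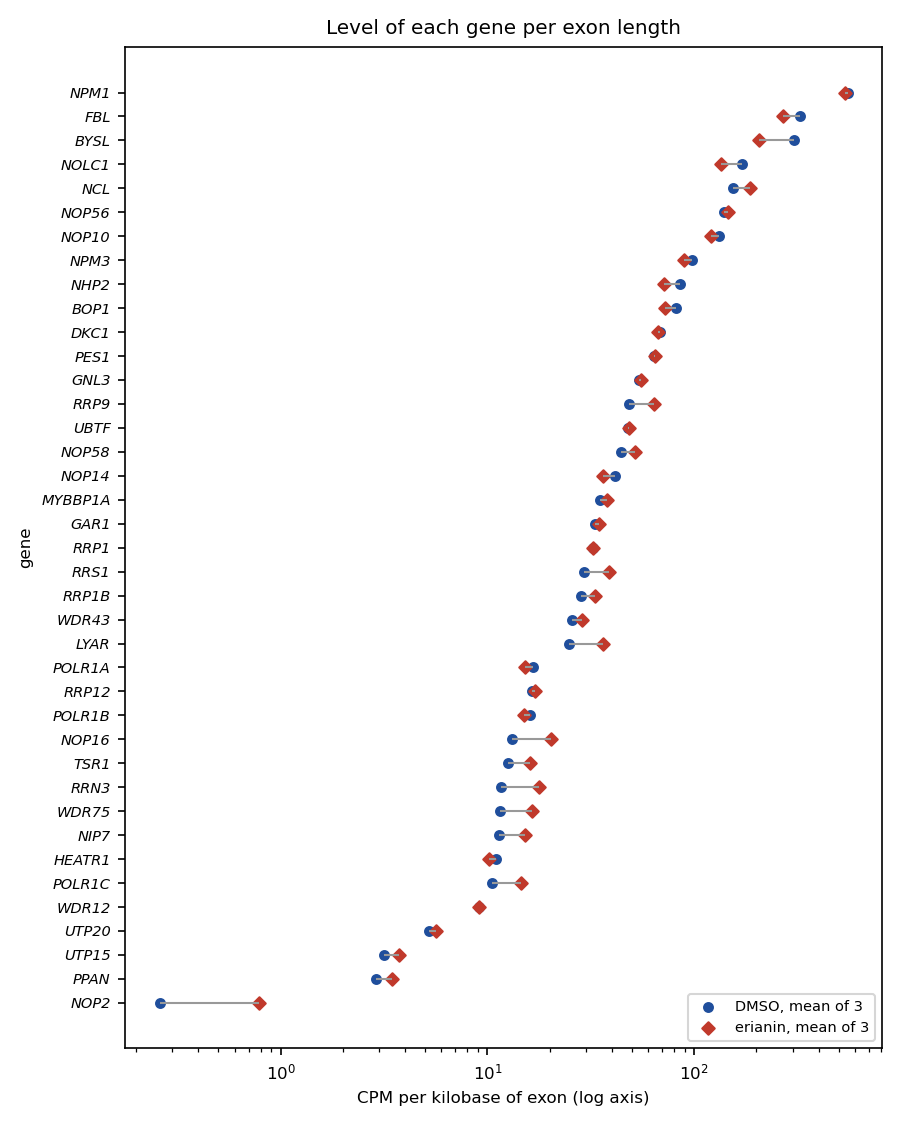
Mean level of each gene in CPM per kilobase of GENCODE 29 exon on a log axis, blue circles for DMSO and red diamonds for erianin (n = 3 each), joined by a line. Levels span 0.260 (NOP2) to 552 (NPM1) with DMSO, and NOP2 has the widest gap between its 2 points.

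Some members are host genes of snoRNAs, which the choice did not use. Of 38 members matched to GENCODE 29 by identifier, 8 (21.1%) hold annotated snoRNA genes within their bounds on the same strand, against 1.63% of 10877 tested protein-coding genes. They were GNL3 with 6 snoRNAs, NOP56 with 5, NOP58 with 4, WDR43 and NCL with 3 each, and DKC1, TSR1 and PPAN with 2 each. Of these 8 hosts, edgeR called TSR1 alone with all 6 libraries, against 11.8% of all genes called higher. Limma-voom with sample quality weights also called NOP58, WDR43, NCL and GNL3 higher, beside 3699 of all 11550 genes tested. Summed over the 39 members, counts made up 1.05%, 0.919% and 0.897% of the unscaled library total in DMSO replicates 1, 2 and 3 and 1.03%, 1.02% and 1.01% with erianin. NPM1 and NCL had the most counts of the 39, so the sum follows them most. The share with erianin lay below that of DMSO replicate 1 and above that of the other DMSO libraries. TMM factors were 0.9836, 0.9487 and 0.9555 with DMSO and 1.038, 1.054 and 1.025 with erianin. Relative to the TMM-scaled totals, the DMSO shares are therefore larger and the erianin shares smaller.

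Other genes of the pathway were followed in 5 lists of 153 genes, of which 145 were tested. The remaining 8, among them POLR1F, POLR1G, MTREX and NOP53, were listed at 0 in every library, which was not read as absence. Of the 145, 12 rose (8.28%) and 11 fell (7.59%), against 11.8% and 12.3% of all genes. Without DMSO replicate 1, 53 were called higher (36.6%) and 39 lower (26.9%), against 27.8% and 27.4%. Their median log2 fold change was 0.01 with all libraries and 0.08 without DMSO replicate 1. In 13 other polymerase I genes tested, 0 rose by edgeR (2 higher at an unadjusted p below 0.05, 2 by DESeq2 and 1 by limma-voom) and 2 fell, both encoding polymerase subunits. POLR1D, shared with polymerase III, fell from 292 to 209 CPM (-0.48 ± 0.11, adjusted p = 0.018) and POLR1E from 86.9 to 66.9 CPM (-0.38 ± 0.11, adjusted p = 0.040).

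In 47 other small subunit genes, 4 rose and 3 fell. Of all genes, 11.8% rose and 12.3% fell, shares that stand beside each edgeR count with all libraries in this paragraph. DCAF13, a processome protein, rose from 46.9 to 91.8 CPM (0.97 ± 0.11, adjusted p = 0.0026), and BMS1, a processome GTPase, rose from 66.2 to 107 CPM (0.69 ± 0.16, adjusted p = 0.021). NOC4L, which binds the member NOP14, fell from 108 to 65.6 CPM (-0.72 ± 0.11, adjusted p = 0.0060). In 58 other large subunit genes, 7 rose and 4 fell, and the largest changes among these 11 were rises of SURF6 (0.85 ± 0.13, adjusted p = 0.0050), GNL2 (0.82 ± 0.12, adjusted p = 0.0050) and RRP15 (0.67 ± 0.18, adjusted p = 0.032). Of 11 snoRNP assembly factors, SHQ1, the chaperone of DKC1, rose from 18.3 to 24.1 CPM (adjusted p = 0.045). PIH1D1, a cochaperone subunit, fell from 183 to 106 CPM (-0.79 ± 0.10, adjusted p = 0.0030), and TCOF1, which encodes treacle, from 356 to 279 CPM (-0.35 ± 0.10, adjusted p = 0.039). None of 16 exosome and trimming genes was called with all libraries by edgeR. At an unadjusted p below 0.05 in that fit, 0 were higher and 1 lower, and DESeq2 called 1 lower and limma-voom 0. Without DMSO replicate 1, 2 of the 16 were called higher and 4 lower, against 27.8% and 27.4% of all genes. DCAF13, SURF6, GNL2 and PIH1D1 were called under each of the 17 other settings, whereas POLR1E was called in 8, SHQ1 in 8 and TCOF1 in 7.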

How the data were processed

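The members and lists were chosen with earlier results of these data known. Expression was measured by RNA sequencing of 3 DMSO and 3 erianin libraries, grouped and numbered by their titles. The authors deposited whole-number counts per gene and TPM values. Tools listed in the submitters' processing notes, with no role stated, were STAR (2.7.10), featureCounts (2.0.1), fastp (0.23.2) and StringTie (2.2.1), on build GRCh38 (hg38). Gene annotation, strandedness and the handling of multi-mapped reads: not given in the sources used here. The deposited TPM equalled counts over a fixed length per gene times a factor per library (relative deviation up to 5.3e-05 over 8880 genes). Each library's TPM total was 39.2% of nominal for DMSO replicate 1, and for the other 5 libraries 63.6% to 66.7%, so TPM was used only within a library.

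Of 65807 entries, 61 repeats of a symbol were left out. The filter was edgeR's filterByExpr, and scaling was TMM. Genes were tested with edgeR's quasi-likelihood method (edgeR 4.0.16, R 4.3.3), treatment being the single term, with Benjamini-Hochberg adjustment, called at 0.05. Standard errors are the absolute log2 fold change divided by the root of F. Exon lengths, coordinates, overlaps and GC content came from GENCODE 29 (GRCh38). Offsets were smooths of each library's deviation on GC content and log length (mgcv 1.9.3; 11405 of the tested genes had both). Other settings used limma 3.58.1 and DESeq2 1.42.0. The fits were tested on simulated counts. Values in every library are given for called members, the member with the highest level per kilobase of each role and 3 paralog pairs. From each wider list, up to 3 called genes of at least 10 CPM without overlap were named by size of change. Other members given by library were chosen after their values were seen.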

Additional observations from a re-analysis of the deposited data

How the results depend on the processing

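Among settings that kept 6 libraries, the number of members called higher, 4, was 3 to 6, except with quality weights. Limma-voom with sample quality weights called 18 of 39 members higher, beside 3699 of all 11550 genes tested. No member called with 6 libraries turned direction in any of the 17 other settings. The number called lower, 0, was 1 by DESeq2, 9 with quality weights, 2 with GC content and length offsets and 1 with the replicate block and these offsets. Leaving out 1 library gave 2 (without erianin replicate 1 or 2) to 18 (without DMSO replicate 1) members higher and 0 to 5 lower. The 5 lower were seen without DMSO replicate 1. Over all genes, 1368 higher and 1423 lower became 3699 and 3709 with quality weights. The lower count was 918 with total counts alone, beside 1840 higher, and 2408 with the offsets, beside 1721 higher. Upper-quartile scaling gave 1763 higher and 1093 lower. Leaving out 1 library gave 407 to 3278 higher and 338 to 3227 lower. In the wider lists, 12 higher and 11 lower became 59 and 45 with quality weights and 19 and 5 with total counts alone. The higher count was 19 with upper-quartile scaling. The lower count was 27 with the offsets, 18 with the replicate block and offsets and 7 with the replicate block alone. Leaving out 1 library gave 3 to 53 higher and 1 to 39 lower. The cause of these moves was not tested.

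The NPM1 to NPM3 difference of 0.03 (log2) was -0.16, -0.22 and -0.02 without DMSO replicate 2, DMSO replicate 3 and erianin replicate 2, in a range from -0.22 to 0.48. Deviations from the group means correlated 0.17, -0.14 and 0.23 for replicate numbers 1, 2 and 3. Between unlike numbers they ran from -0.29 (DMSO 1 with erianin 3) to 0.25 (DMSO 2 with erianin 3). Deviations within a group cancel out and DMSO replicate 1 stood apart, so these values cannot show whether the numbers pair the samples. The replicate block gave 4 members higher and 0 lower, ended the call of TSR1, called WDR75 and left the paralog differences at -0.15, -0.21 and 0.03. Over all genes it gave 1139 higher and 1157 lower.

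The log2 fold change turned sign in 14 members, none of them called by edgeR with 6 libraries. In that fit these 14 ran from -0.17 (BOP1) to 0.26 (PPAN). Quality weights called RRP12, PES1 and RRP1 lower and WDR12 higher after the turn. Leaving out 1 library gave log2 ranges of -0.0392 to 0.0889 for UBTF, -0.0824 to 0.0575 for DKC1, -0.0553 to 0.3493 for GAR1, -0.1888 to 0.0428 for HEATR1, -0.0909 to 0.1370 for RRP12, -0.4539 to 0.0312 for BOP1, -0.0862 to 0.0732 for PES1, -0.1648 to 0.3030 for WDR12, -0.1396 to 0.0951 for RRP1, -0.0475 to 0.4722 for PPAN, -0.0446 to 0.1827 for GNL3, -0.1322 to 0.1027 for NPM1 and -0.3771 to 0.0201 for NPM3. With total counts alone, values were 0.0057 for POLR1B, 0.0787 for DKC1, 0.0990 for WDR12 and 0.0627 for NPM1. With upper-quartile factors, values were 0.0575 for DKC1, 0.0848 for WDR12 and 0.0433 for NPM1. With limma-voom with sample quality weights, values were 0.0303 for DKC1, 0.0467 for HEATR1, -0.1324 for RRP12, -0.1294 for PES1, 0.3528 for WDR12, -0.1839 for RRP1, -0.1056 for PPAN and 0.1080 for NPM1. With GC content and length offsets, values were -0.0462 for GAR1, -0.0568 for PES1, 0.0526 for WDR12, -0.0805 for RRP1 and -0.0511 for GNL3. With replicate block with GC content and length offsets, values were -0.0054 for GAR1, -0.0572 for PES1, 0.0621 for WDR12, -0.0797 for RRP1 and -0.0487 for GNL3. WDR12 was at 0.0178 with at least 1 CPM in 3 libraries, 0.0354 with limma-voom and 0.0338 with the replicate block, and RRP1 at -0.0011 with DESeq2 and with its size factors alone.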

Other observations

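BYSL lies on chromosome 6 between MED20, which lies 48 bases away on the opposite strand, and CCND3, which encodes cyclin D3. Its neighbours were looked at after the level of BYSL had been seen. In mean CPM over the DMSO libraries, replicate 1 included, 217 of the 11550 tested genes stood above BYSL. That rank is not per kilobase of exon, unlike the levels compared above. Of the 12 tested protein-coding genes whose lower annotated coordinate lies within 400 kb of that of BYSL, itself included, 5 fell and 2 rose with all 6 libraries, against 12.3% and 11.8% of all genes tested. Without DMSO replicate 1, 8 were called lower and 3 higher, against 27.4% and 27.8%. The window was chosen after these levels were known, and neighbours were not tested as a group. CCND3 fell from 2855 ± 387 to 1731 ± 88.7 CPM (log2 fold change -0.72, edgeR adjusted p = 0.0095). USP49, a histone deubiquitinase gene, fell from 472 ± 55.1 to 282 ± 8.67 CPM (-0.74, adjusted p = 0.0055), and TFEB, the lysosomal transcription factor gene, fell from 451 ± 91.4 to 279 ± 17.1 CPM (-0.69, adjusted p = 0.022). MED20, a Mediator subunit gene that starts next to BYSL on the other strand, rose from 185 ± 20.4 to 265 ± 3.28 CPM (0.52, adjusted p = 0.017). BYSL, called lower only where DMSO replicate 1 was left out or reweighted or where the GC and length offsets were used, and MED20 thus stood on opposite sides of 0. The difference between neighbours was not tested.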
